A study of Mus musculus with 9 samples.

Results

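Genes were sought in which embryonic cardiac fibroblasts stood apart from embryonic cardiomyocytes and from adult cardiac fibroblasts at once, with particular attention to secreted products. The 3 embryonic fibroblast arrays were set against the average of the 2 other group means, 3 arrays each, among all 9 arrays of the study. Of 19933 genes, 756 had all 3 embryonic fibroblast arrays above all 6 other arrays, a background of 3.79%, and 493 had them below all 6, a background of 2.47%. The difference was also called by limma, at an adjusted p under 0.05, for 524 of the genes above (2.63% of all genes) and 168 of the genes below (0.843%). These 524 and 168 genes are described here as above both or below both other groups. The lack of overlap chose them, so it is no further evidence about them.

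The study sought factors made by cardiac fibroblasts that act on the proliferation of heart muscle cells. Mouse RNA was measured on Affymetrix mouse Gene 1.0 ST arrays, which probe the exons of each transcript. The groups were embryonic cardiomyocytes positive for a yellow fluorescent reporter named Nkx-YFP, embryonic cardiac fibroblasts and adult cardiac fibroblasts, with 3 biological replicates each. The sources used here give no strain, embryonic stage, adult age or sex, and do not say how the fibroblasts were isolated or if they were grown in culture. Age, culture and cell type therefore cannot be told apart where they differ between groups.

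Cardiac fibroblasts lay down the collagens and fibronectin of the heart and release growth factors that act on neighbouring cells. Much of the embryonic population descends from the epicardium, the mesothelial sheet that covers the heart, and part of it from the endocardium, the endothelium that lines it. Muscle cells sense matrix through integrins, which are pairs of an alpha and a beta chain, and sense EGF family ligands through the ErbB receptors.

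The markers of the labelled cell types were examined first. Summarised over 12 fibroblast markers, the mean RMA value of an array was 10.02 to 10.28 in the embryonic fibroblasts, 8.72 to 8.95 in the cardiomyocytes and 10.83 to 10.99 in the adult fibroblasts. The embryonic fibroblasts thus carried fibroblast markers well above the cardiomyocytes. The 16 cardiomyocyte markers averaged 11.05 to 11.76 in the embryonic fibroblasts, 12.58 to 12.68 in the cardiomyocytes and 7.95 to 8.31 in the adult fibroblasts. Cardiac troponin T (Tnnt2), a sarcomere protein of heart muscle, read 13.43, 13.26 and 13.44 in the embryonic fibroblasts, 13.88, 13.77 and 13.81 in the cardiomyocytes and 9.40, 10.62 and 9.47 in the adult fibroblasts. Muscle transcripts were therefore strong in the libraries labelled embryonic fibroblast, lower than in the cardiomyocytes and far above the adult fibroblasts. In bulk RNA of this kind, fewer cells of a type and less RNA per cell cannot be told apart.

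Nkx2-5, a cardiac transcription factor, gave no separation of the groups. Nkx2-5 read 8.26, 8.32 and 8.16 in the embryonic fibroblasts, 8.15, 8.41 and 8.33 in the cardiomyocytes and 8.23, 8.09 and 8.38 in the adult fibroblasts, and the adjusted p of its contrast was 0.937. Decorin (Dcn), a proteoglycan of mature fibroblasts, read 12.02, 11.84 and 11.80 in the embryonic fibroblasts, 10.01, 9.17 and 9.13 in the cardiomyocytes and 13.55, 13.41 and 13.52 in the adult fibroblasts. The embryonic fibroblasts lay between the other groups for decorin. None of the 16 cardiomyocyte markers was above or below both other groups in the limma fit. Their average contrast was called higher in 11 and lower in 0, beside 5.28% and 2.55% of all genes, and at an unadjusted p under 0.05 it was higher in 14 and lower in 0, beside 11.6% and 9.43%. That contrast averages the other groups, so it is higher wherever the adult values are low enough.

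**Figure D1:**
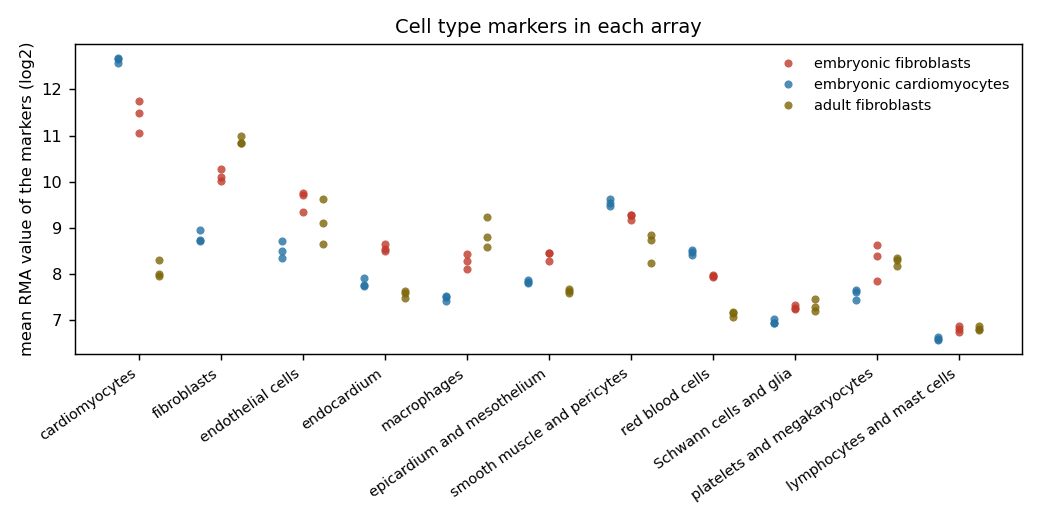
Mean RMA value (log2) of the markers of 11 cell types in each array, with 1 point per array and the 3 groups in separate colours. The cardiomyocyte markers of the embryonic fibroblasts lie at 11.05 to 11.76, between the cardiomyocytes and the adult fibroblasts, while their epicardial and endocardial markers lie above both.

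An RMA value is the log2 signal of a gene after normalization between arrays, so a difference of 1 is a 2-fold change in that signal. The average contrast below is the embryonic fibroblast mean minus the mean of the 2 other group means, given with its standard error (SE) from limma and an adjusted p over all 19933 genes. Counts in gene lists are to be read beside the shares of all genes, 2.63% above both and 0.843% below both. In limma the average contrast was called higher in 5.28% and lower in 2.55% of all genes. At an unadjusted p under 0.05 these shares were 11.6% and 9.43%. The embryonic fibroblast mean lay between the others for 10401 genes (52.2%), was lowest for 28.5% and highest for 19.1%. Among the 7091 genes called between cardiomyocytes and adult fibroblasts, 81.8% had the embryonic fibroblasts in between, 10.7% had them highest and 7.45% had them lowest. Choosing genes by a difference between the other groups itself favours a middle place for the embryonic fibroblasts. The genes above both were drawn from the 19.1% of all genes in which the embryonic fibroblast mean was highest.

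The 524 genes above both had a median average contrast of 0.64, from 0.25 to 2.75, and 17 of them were predicted or unnamed loci. Their distance to the nearer group mean reached 1.5-fold in 185 genes, 2-fold in 54 (0.271% of all genes), 3-fold in 11 and 4-fold in 2. Below both, 28 genes reached 1.5-fold and 3 reached 2-fold (0.0151%). Each pairwise difference was called on its own in 357 of the genes above and 89 of the genes below. The rest met the definition without such calls, so above or below both does not mean a called difference from each group. The average contrast does not depend on the difference between cardiomyocytes and adult fibroblasts. The no-overlap rule does, since the embryonic fibroblast arrays must clear whichever of those groups is nearer. That difference was called in 35.6% of all genes, in 44.3% of the genes above and in 33.3% of the genes below. The choice of genes itself shaped the shares above and below. Among the 524 above, cardiomyocytes were higher in 115 and adult fibroblasts in 117 and their difference was not called in 292.

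Embryonic fibroblast replicate 3 was the least extreme of its group most often: it was the lowest of the 3 in 48.1% of the genes above, against 40.9% of all genes, and the highest in 61.3% of the genes below, against 30.2% of all genes. Without it, 637 genes were above both and 281 below, with fewer arrays that had to clear the rest. Without replicate 1 of the embryonic fibroblasts the counts were 384 and 79, and without replicate 2 they were 362 and 73. Leaving out cardiomyocyte replicate 2 gave 111 genes below, and leaving out adult fibroblast replicate 3, the array with the lowest mean correlation with its own group (0.970), gave 338. The count above stayed within 1.5 times of 524 in each of these fits. Without replicate 3 of the embryonic fibroblasts 12 genes lay at least 2-fold below, and without replicate 2 of the embryonic fibroblasts or replicate 1 of the cardiomyocytes 1 gene did. That count was 5 without adult fibroblast replicate 2 or 3.

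**Figure D2:**
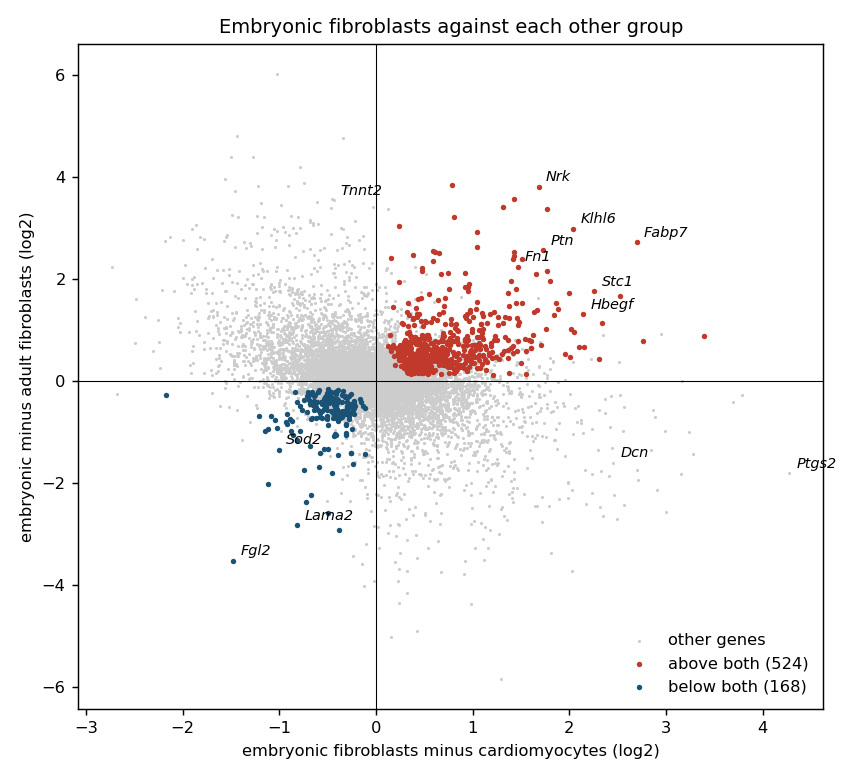
Each point is 1 of 19933 genes, placed by the embryonic fibroblast mean minus the cardiomyocyte mean (horizontal axis, log2) and minus the adult fibroblast mean (vertical axis, log2). The 524 genes above both other groups (red) fill the upper right and the 168 below both (blue) the lower left; both axes share the embryonic fibroblast arrays.

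The gene farthest above both other groups was Fabp7, a fatty acid binding protein known from radial glia. It read 10.53, 10.45 and 10.46 in the embryonic fibroblasts, 8.48, 7.58 and 7.30 in the cardiomyocytes and 7.62, 7.75 and 7.90 in the adult fibroblasts. The 3 embryonic fibroblast arrays lay within 0.1 of each other, and the cardiomyocyte minus adult difference, 0.03, was not called (adjusted p = 0.947). The average contrast was 2.71 ± 0.21 (SE), a 6.54-fold difference in signal, with an adjusted p of 0.000172. Fabp7 was the single member above both among 8 measured glial markers, whose array means were 7.25 to 7.34 in the embryonic fibroblasts, 6.93 to 7.02 in the cardiomyocytes and 7.21 to 7.46 in the adult fibroblasts. The part of glial cells in its level was not tested.

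Klhl6, a kelch adaptor of a ubiquitin ligase, read 11.50, 11.43 and 10.76 in the embryonic fibroblasts, 9.16, 9.19 and 9.20 in the cardiomyocytes and 7.94, 8.73 and 8.04 in the adult fibroblasts. Its average contrast was 2.52 ± 0.20 (SE) with an adjusted p of 0.000174, and embryonic fibroblast replicate 3 was the lowest of its group. The related Klhl4 read 10.39, 10.47 and 10.47 in the embryonic fibroblasts, 9.19, 8.17 and 8.67 in the cardiomyocytes and 7.14, 7.16 and 6.90 in the adult fibroblasts, with cardiomyocytes well above adult fibroblasts. Its contrast was 2.57 ± 0.18 (SE, adjusted p = 0.000107). The kinase Nrk, known from the placenta, had the largest average contrast of the genes above, 2.75 ± 0.15 (SE) or 6.72-fold (adjusted p = 2.09e-05). It read 11.33, 11.58 and 11.48 in the embryonic fibroblasts, 9.93, 9.57 and 9.83 in the cardiomyocytes and 7.31, 7.58 and 8.05 in the adult fibroblasts, again a graded order with the cardiomyocytes nearer.

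Several of the 12 largest lie on the cell surface or in signalling. Dpp4, a surface peptidase that trims peptide hormones and chemokines, read 10.09, 9.77 and 9.67 in the embryonic fibroblasts, 8.29, 7.90 and 7.96 in the cardiomyocytes and 7.57, 7.74 and 8.36 in the adult fibroblasts. Its contrast was 1.88 ± 0.18 (SE, adjusted p = 0.000387), and the arrays of the other groups overlapped. Cadherin 11 (Cdh11), an adhesion protein of mesenchyme, read 11.28, 11.52 and 11.35 in the embryonic fibroblasts, 10.05, 9.75 and 9.81 in the cardiomyocytes and 8.71, 8.80 and 9.46 in the adult fibroblasts. The cardiomyocytes were nearer, and the contrast was 1.95 ± 0.16 (SE, adjusted p = 0.000181). Rasgrp3, an activator of Ras in endothelial and blood cells, ranged from 10.29 to 10.73 in the embryonic fibroblasts, 8.30 to 9.07 in the cardiomyocytes and 8.46 to 9.62 in the adult fibroblasts, with a contrast of 1.69 ± 0.25 (SE, adjusted p = 0.00348).

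Other members of this group are epithelial in their usual setting. The uroplakin Upk1b, made in bladder epithelium and mesothelium, read 9.11, 8.27 and 9.01 in the embryonic fibroblasts, 7.20, 7.17 and 6.74 in the cardiomyocytes and 6.75, 6.43 and 6.74 in the adult fibroblasts. The mucin Muc16, a mesothelial surface glycoprotein, read 8.31, 7.35 and 8.28 in the embryonic fibroblasts, 6.40, 5.93 and 6.64 in the cardiomyocytes and 5.59, 5.63 and 6.42 in the adult fibroblasts. For both genes embryonic fibroblast replicate 2 was the lowest of its group and still above the other arrays. Their contrasts were 1.96 ± 0.19 (SE, adjusted p = 0.000425) and 1.88 ± 0.27 (SE, adjusted p = 0.00325). Sprr1a, a protein of the cornified envelope that is also induced in stressed cells, read 10.04, 9.85 and 9.95 in the embryonic fibroblasts, against 7.75 to 8.18 and 8.01 to 8.58 in the cardiomyocytes and adult fibroblasts (contrast 1.86 ± 0.14, SE, adjusted p = 0.000144).

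Secreted products were described through 16 lists that together held 583 measured genes. Not every member is secreted: the lists include 24 prostaglandin synthesis and receptor genes and membrane proteins such as Mmp16 and Reck. Of the 583, 43 were above both (7.38%) and 7 below both (1.20%), beside 2.63% and 0.843% of all genes. These are counts of list members, not of secreted products alone. The median average contrast of the 583 was -0.02, beside -0.03 over all genes, so the median list member lay where the median gene did. By role, 16 of 151 matrix genes, 8 of 95 enzyme genes, 17 of 282 ligand genes, 1 of 24 protease inhibitors and 1 of 32 complement and acute phase genes were above both. The 43 became 36 without embryonic fibroblast replicate 1 and 52 without replicate 3. The 7 below became 4 without cardiomyocyte replicate 1 or 3 or embryonic fibroblast replicate 1 or 2, and 13 without adult fibroblast replicate 3. Of the 43, 11 lay at least 2-fold from the nearer group mean: Stc1, Ptn, Fn1, Hapln1, Egfl6, Hbegf, Cfi, Tnfsf18, Col12a1, Sfrp2 and Apela. The difference of Apela from the cardiomyocytes alone was not called in limma (adjusted p = 0.0936).

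**Figure D3:**
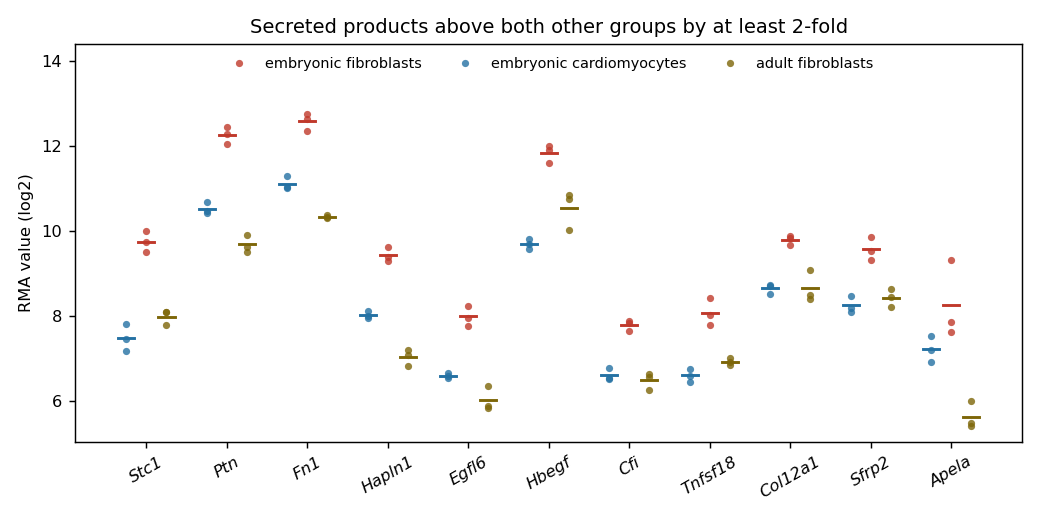
RMA values (log2) of the 11 members of the secreted product lists at least 2-fold above both other group means, with 1 point per array and a bar at each group mean. Embryonic fibroblast replicate 3 stands apart for Apela at 9.31, whereas Ptn and Fn1 show narrow groups.

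**Figure D4:**
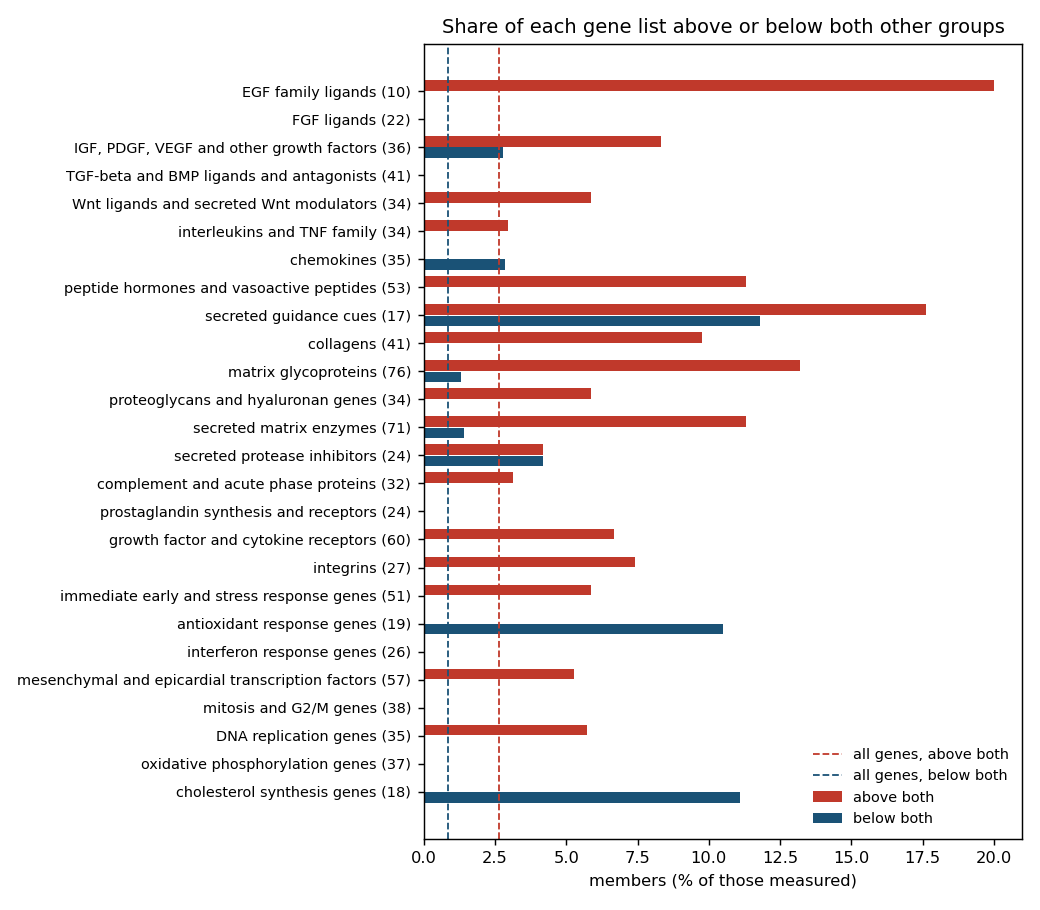
Share of the measured members (%) of each of 26 gene lists above both (red) or below both (blue) other groups, with list sizes in brackets. Dashed lines mark the shares of all genes, 2.63% above and 0.843% below; 6 lists have members in neither direction.

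Among the growth factor ligands, Hbegf encodes heparin-binding EGF-like growth factor, which acts on EGFR and ErbB4. It read 12.01, 11.91 and 11.61 in the embryonic fibroblasts, 9.57, 9.82 and 9.70 in the cardiomyocytes and 10.74, 10.84 and 10.03 in the adult fibroblasts. The adult fibroblasts were nearer, and replicate 3 was the lowest of that group. The average contrast was 1.72 ± 0.18 (SE), or 3.31-fold (adjusted p = 0.000495), made up of 2.15 over the cardiomyocytes and 1.30 over the adult fibroblasts. Hbegf and Nrg1, the neuregulin that endocardium sends to muscle, were the members above both among 10 EGF family ligands. Nrg1 read 7.47, 7.47 and 7.61 in the embryonic fibroblasts, 7.22, 7.18 and 7.22 in the cardiomyocytes and 7.03, 6.82 and 7.04 in the adult fibroblasts, a contrast of 0.43 ± 0.07 (SE, adjusted p = 0.00693).

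The receptors for these ligands, looked up after their values had been seen, did not peak in the embryonic fibroblasts. Egfr read 8.30, 8.05 and 8.16 in the embryonic fibroblasts, 7.05, 7.12 and 7.30 in the cardiomyocytes and 11.33, 10.89 and 10.56 in the adult fibroblasts. The adult fibroblasts were highest for Egfr, and the cardiomyocytes lowest. Erbb4 had the opposite order, with 8.49, 8.32 and 8.995 in the embryonic fibroblasts, 10.17, 10.13 and 9.92 in the cardiomyocytes and 7.53, 7.15 and 7.41 in the adult fibroblasts. Erbb2 read 8.51 to 8.73, 9.01 to 9.26 and 7.83 to 8.24 in the same order of groups, highest in the cardiomyocytes.

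Pleiotrophin (Ptn), a heparin-binding growth factor, read 12.43, 12.28 and 12.03 in the embryonic fibroblasts, 10.68, 10.47 and 10.42 in the cardiomyocytes and 9.63, 9.50 and 9.92 in the adult fibroblasts. The cardiomyocytes were nearer and the groups were narrow. Its contrast was 2.15 ± 0.12 (SE), 4.43-fold, with an adjusted p of 2.09e-05. Midkine (Mdk), the other member of that family, read 9.37, 9.13 and 8.83 in the embryonic fibroblasts, 8.70, 8.70 and 8.66 in the cardiomyocytes and 7.59, 7.68 and 8.11 in the adult fibroblasts. The order of groups was the same as for Ptn, with a smaller contrast of 0.87 ± 0.14 (SE, adjusted p = 0.00523). Unlike for Ptn, the difference of Mdk from the cardiomyocytes alone was not called in limma. Vegfd, a ligand of lymphatic endothelial receptors, read 9.05, 9.49 and 9.06 in the embryonic fibroblasts, 8.25, 8.26 and 7.92 in the cardiomyocytes and 8.57, 8.49 and 8.59 in the adult fibroblasts and had a contrast of 0.86 ± 0.12 (SE, adjusted p = 0.00264). These were the 3 members above both among 36 other growth factor ligands, and without embryonic fibroblast replicate 3 the count was 6. Vegfa, the main growth factor of blood vessels, was the 1 member below both, at 9.42, 9.37 and 9.31 in the embryonic fibroblasts, 9.69, 9.66 and 9.64 in the cardiomyocytes and 9.97, 9.79 and 9.59 in the adult fibroblasts (contrast -0.36 ± 0.08, SE, adjusted p = 0.0322). The call of Vegfa was lost under a variance trend (0.0534) and without any 1 array other than adult fibroblast replicate 1 or 3, with an adjusted p up to 0.122.

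FGF ligands (22 measured) and TGF-beta and BMP ligands and antagonists (41) had no member above or below both in the limma fit. The average contrast was called higher in 0 and lower in 2 FGF ligands, and in 2 and 2 of the TGF-beta list. At an unadjusted p under 0.05 it was higher in 1 and lower in 4 FGF ligands, and in 7 and 2 of the TGF-beta list, where 11.6% and 9.43% of all genes were. Without embryonic fibroblast replicate 3, 2 members of the TGF-beta list were above both, and without adult fibroblast replicate 3, 1 member was. Without adult fibroblast replicate 2 or 3, 1 FGF ligand was below both.

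Hormones and vasoactive peptides gave 6 members above both (11.3%, against 2.63% of all genes) and 0 below among 53. At an unadjusted p under 0.05 in limma, 4 had a lower average contrast. Stanniocalcin 1 (Stc1), a secreted glycoprotein that acts on calcium handling, read 9.50, 9.99 and 9.74 in the embryonic fibroblasts, 7.82, 7.18 and 7.46 in the cardiomyocytes and 7.79, 8.08 and 8.09 in the adult fibroblasts. The lowest embryonic fibroblast array was above 9 and the others were below it, and the contrast was 2.01 ± 0.15 (SE), or 4.02-fold (adjusted p = 0.000144). Endothelin 1 (Edn1), a vasoconstrictor peptide of endothelium, read 9.46, 9.53 and 9.63 in the embryonic fibroblasts, 7.34, 7.30 and 7.82 in the cardiomyocytes and 8.47, 8.97 and 8.30 in the adult fibroblasts. Adult fibroblasts were nearer for Edn1, which had a contrast of 1.51 ± 0.16 (SE, adjusted p = 0.000625). Apela, the embryonic ligand of the apelin receptor, read 7.86, 7.63 and 9.31 in the embryonic fibroblasts, 7.54, 6.92 and 7.20 in the cardiomyocytes and 5.41, 5.48 and 5.999 in the adult fibroblasts. Its lowest embryonic fibroblast array lay only just above the highest cardiomyocyte array, and replicate 3 was the highest. The contrast was 1.84 ± 0.34 (SE, adjusted p = 0.0106). Over the cardiomyocytes alone the difference was 1.05 ± 0.39 (SE) and was not called (adjusted p = 0.0936).

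Igfbp5, a binding protein of insulin-like growth factors, read 10.05, 10.05 and 9.76 in the embryonic fibroblasts, 9.42, 9.27 and 9.25 in the cardiomyocytes and 8.45, 8.11 and 8.58 in the adult fibroblasts, with a contrast of 1.11 ± 0.11 (SE, adjusted p = 0.000516). Its relative Igfbp4, named after its values were seen, read 8.71 to 9.29, 8.32 to 8.43 and 8.37 to 8.50 in embryonic fibroblasts, cardiomyocytes and adult fibroblasts. Neuropeptide Y (Npy), a peptide of sympathetic nerves, read 8.53, 8.34 and 8.50 in the embryonic fibroblasts, 7.75, 7.94 and 7.91 in the cardiomyocytes and 7.83, 7.69 and 8.22 in the adult fibroblasts. The embryonic fibroblasts were above both for Npy by a smaller step, with a contrast of 0.57 ± 0.12 (SE, adjusted p = 0.0172). That call was lost without embryonic fibroblast replicate 1 (adjusted p = 0.0896) or replicate 3 (0.0556).

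Among 34 Wnt ligands and secreted modulators, the inhibitor Sfrp2 read 9.32, 9.54 and 9.85 in the embryonic fibroblasts, 8.48, 8.18 and 8.09 in the cardiomyocytes and 8.46, 8.22 and 8.63 in the adult fibroblasts. The other groups overlapped, and the contrast was 1.23 ± 0.14 (SE), or 2.34-fold (adjusted p = 0.00094). The antagonist Dkk2 read 8.44, 8.94 and 8.57 in the embryonic fibroblasts, 8.14, 8.04 and 8.24 in the cardiomyocytes and 7.75, 8.18 and 8.23 in the adult fibroblasts, with a contrast of 0.56 ± 0.14 (SE, adjusted p = 0.0393). Its call was lost under quantile normalization (adjusted p = 0.0624) and without any 1 of the cardiomyocyte or embryonic fibroblast arrays, with an adjusted p up to 0.174, and 1 member of the list was then above both. Of the Wnt receptors, chosen after their values were seen, Fzd4 read 9.14, 9.29 and 9.02 in the embryonic fibroblasts, against 7.73 to 7.91 in the cardiomyocytes and 8.05 to 8.51 in the adult fibroblasts. Fzd6 and Fzd7 were above both as well, with contrasts of 0.70 ± 0.08 (SE) and 0.67 ± 0.09 (SE).

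The TNF family ligand Tnfsf18, known as GITR ligand, was 1 of 34 interleukins and TNF family members above both (2.94%), a share near the 2.63% of all genes. It read 7.78, 8.43 and 8.02 in the embryonic fibroblasts, 6.59, 6.46 and 6.76 in the cardiomyocytes and 6.84, 7.01 and 6.91 in the adult fibroblasts, a contrast of 1.32 ± 0.13 (SE, adjusted p = 0.000495). No chemokine of 35 was above both in the limma fit, and Cxcl12 was below both. On the average contrast 1 chemokine was called higher and 6 lower, beside 5.28% and 2.55% of all genes. At an unadjusted p under 0.05 the counts were 2 and 10, beside 11.6% and 9.43%. Cxcl12, which guides blood and endothelial progenitors, read 7.82, 8.06 and 8.50 in the embryonic fibroblasts, 9.16, 9.23 and 9.13 in the cardiomyocytes and 8.91, 9.10 and 8.66 in the adult fibroblasts. All 3 embryonic fibroblast arrays were lowest, with a contrast of -0.90 ± 0.14 (SE, adjusted p = 0.00563).

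Some inflammatory products known from activated fibroblasts had a different order. Ptgs2, the inducible cyclooxygenase of prostaglandin synthesis, read 11.33, 11.23 and 10.83 in the embryonic fibroblasts, 6.74, 7.02 and 6.81 in the cardiomyocytes and 13.05, 12.74 and 13.05 in the adult fibroblasts. The chemokine Ccl2 read 11.41, 11.34 and 11.49 in the embryonic fibroblasts, 8.25, 7.99 and 8.16 in the cardiomyocytes and 13.15, 13.19 and 12.19 in the adult fibroblasts. For both, chosen after their values were seen, the adult fibroblasts were the highest group and the embryonic fibroblasts were intermediate. Thrombospondin 1 (Thbs1), chosen likewise, overlapped between the adult (12.86, 12.49 and 12.15) and the embryonic fibroblasts (12.61, 12.64 and 12.23). None of 24 prostaglandin genes was above both in the limma fit, although 2 had a called higher average contrast and 6 one at an unadjusted p under 0.05, and without embryonic or adult fibroblast replicate 3 the count was 1.

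Secreted guidance cues had members in both directions. Of 17 measured, Sema3a, Sema3d and Sema3e were above both and Sema3c and Ntn4 below. Sema3a, a repellent of axons and endothelial cells, read 9.53, 9.94 and 9.44 in the embryonic fibroblasts, 9.21, 9.10 and 9.17 in the cardiomyocytes and 7.38, 7.50 and 7.54 in the adult fibroblasts. Its contrast was 1.32 ± 0.11 (SE, adjusted p = 0.000181), with the cardiomyocytes close behind. Sema3d, a semaphorin of the epicardium, read 8.70, 8.50 and 8.80 in the embryonic fibroblasts, 7.68, 7.62 and 7.50 in the cardiomyocytes and 7.78, 7.55 and 8.07 in the adult fibroblasts (contrast 0.97 ± 0.12, SE, adjusted p = 0.00127). Sema3e had a contrast of 0.57 ± 0.14 (SE, adjusted p = 0.0345), lost without cardiomyocyte replicate 1 or 2 or embryonic fibroblast replicate 2 or 3, with an adjusted p up to 0.167.

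Sema3c, which guides neural crest to the outflow tract, went the other way. It read 8.19, 8.20 and 8.59 in the embryonic fibroblasts, 8.70, 8.89 and 8.75 in the cardiomyocytes and 10.02, 9.83 and 10.54 in the adult fibroblasts. The adult fibroblasts were far higher, and the contrast was -1.13 ± 0.16 (SE, adjusted p = 0.0026). The difference of Sema3c from the cardiomyocytes alone was not called in limma. Netrin 4 (Ntn4) was 7.81 to 7.85 in the embryonic fibroblasts, against 7.92 to 7.97 and 8.16 to 8.51 in cardiomyocytes and adult fibroblasts, and its contrast of -0.32 ± 0.08 (SE, adjusted p = 0.0415) was lost with the replicate block (0.0526) or without any 1 array other than adult fibroblast replicate 3 (up to 0.14). For Ntn4 as well, the difference from the cardiomyocytes alone was not called in limma.

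Receptors for such cues, chosen after their values were seen, included members above both. The semaphorin receptor Plxnc1 read 9.53, 9.55 and 9.32 in the embryonic fibroblasts, 8.28, 7.69 and 7.88 in the cardiomyocytes and 7.71, 7.84 and 8.25 in the adult fibroblasts. Plxnd1, the receptor of Sema3e, read 9.37, 9.45 and 8.93 in the embryonic fibroblasts and 7.89 to 8.24 in the 6 other arrays. The Slit receptor Robo2 read 9.53, 9.73 and 9.64 in the embryonic fibroblasts, 8.12, 8.15 and 8.25 in the cardiomyocytes and 8.14, 8.04 and 8.99 in the adult fibroblasts. Their contrasts were 1.52 ± 0.15 (SE), 1.18 ± 0.12 (SE) and 1.35 ± 0.18 (SE). Neuropilin 1 (Nrp1), a co-receptor of class 3 semaphorins, was not separated (contrast 0.20 ± 0.10, SE, adjusted p = 0.299).

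Matrix genes held the highest share above both of the roles in the secreted product lists, 10.6%. Fibronectin (Fn1), the adhesive glycoprotein bound by integrins, read 12.64, 12.74 and 12.35 in the embryonic fibroblasts, 11.28, 11.03 and 11.02 in the cardiomyocytes and 10.31, 10.37 and 10.33 in the adult fibroblasts. The cardiomyocytes were nearer, and each group was narrow. The average contrast was 1.85 ± 0.10 (SE), or 3.61-fold (adjusted p = 2.09e-05), with 1.47 over the cardiomyocytes and 2.24 over the adult fibroblasts. Fn1 was 1 of 10 members above both among 76 matrix glycoproteins, a list in which 1 member was below. The 10 became 15 without embryonic fibroblast replicate 3.

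The matrix protein Egfl6 read 8.24, 7.77 and 7.95 in the embryonic fibroblasts, 6.55, 6.66 and 6.58 in the cardiomyocytes and 5.89, 5.84 and 6.35 in the adult fibroblasts. Its contrast was 1.68 ± 0.13 (SE, adjusted p = 0.000174). Frem1, a basement membrane protein, read 9.03, 9.46 and 9.07 in the embryonic fibroblasts, 8.27, 8.27 and 8.27 in the cardiomyocytes and 6.97, 6.83 and 7.39 in the adult fibroblasts, with a large step between cardiomyocytes and adult fibroblasts. Its contrast was 1.52 ± 0.14 (SE, adjusted p = 0.000293). The 3 cardiomyocyte values of Frem1 were identical in the deposited table, so they show no spread between those arrays. Edil3, an integrin ligand of embryonic endothelium, had a contrast of 1.000 ± 0.13 (SE, adjusted p = 0.00187), and Spon2, a spondin, one of 0.86 ± 0.09 (SE, adjusted p = 0.000548). Periostin (Postn), a matrix protein of valves and activated fibroblasts, read 12.45, 12.42 and 12.36 in the embryonic fibroblasts, 11.17, 10.86 and 10.83 in the cardiomyocytes and 12.07, 11.34 and 12.04 in the adult fibroblasts. The adult fibroblasts were nearer for Postn, unlike for Fn1, and the contrast was 1.03 ± 0.16 (SE, adjusted p = 0.00488).

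Hyaluronan and proteoglycan link protein 1 (Hapln1), needed for the cardiac jelly of the valves, read 9.29, 9.63 and 9.38 in the embryonic fibroblasts, 7.95, 7.997 and 8.12 in the cardiomyocytes and 6.84, 7.09 and 7.20 in the adult fibroblasts. The 3 groups formed separate steps, and the contrast was 1.90 ± 0.10 (SE), or 3.74-fold (adjusted p = 2.09e-05). Agrin (Agrn), a heparan sulfate proteoglycan, read 8.69, 8.54 and 8.23 in the embryonic fibroblasts, 8.11, 8.10 and 8.11 in the cardiomyocytes and 7.66, 7.55 and 7.66 in the adult fibroblasts. Its contrast was 0.62 ± 0.10 (SE, adjusted p = 0.00494), and these were the 2 members above both among 34 proteoglycan and hyaluronan genes.

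Collagens were above both in 4 of 41 cases and below in 0, with 3 at an unadjusted p under 0.05 in limma for a lower average contrast. Col12a1, a fibril-associated collagen, read 9.84, 9.88 and 9.66 in the embryonic fibroblasts, 8.72, 8.70 and 8.52 in the cardiomyocytes and 9.08, 8.40 and 8.49 in the adult fibroblasts. The other groups overlapped, and the contrast was 1.14 ± 0.14 (SE, adjusted p = 0.00156). Col3a1, a fibrillar collagen of loose connective tissue, read 9.78, 9.72 and 9.45 in the embryonic fibroblasts, 8.44, 8.31 and 8.30 in the cardiomyocytes and 9.15, 9.10 and 9.10 in the adult fibroblasts. The groups formed 3 steps with adult fibroblasts in the middle, and the contrast was 0.92 ± 0.08 (SE), or 1.89-fold (adjusted p = 0.00032). Col5a2 had the same order and a contrast of 0.96 ± 0.10 (SE, adjusted p = 0.000534). Col1a2, a chain of type I collagen, had a contrast of 0.51 ± 0.09 (SE, adjusted p = 0.0088), lost without embryonic fibroblast replicate 1 (0.0527). Its difference from the adult fibroblasts alone was not called in limma (adjusted p = 0.106).

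Col1a1, the partner chain of Col1a2, overlapped between the fibroblast groups. It read 9.39, 9.21 and 8.86 in the embryonic fibroblasts, 8.50, 8.48 and 8.51 in the cardiomyocytes and 9.06, 8.81 and 8.85 in the adult fibroblasts. Its contrast of 0.45 ± 0.11 (SE, adjusted p = 0.0403) was lost in 8 of 16 alternatives, with an adjusted p of 0.172 without embryonic fibroblast replicate 1. The others were embryonic fibroblast replicate 2, each cardiomyocyte array, adult fibroblast replicate 2, quantile normalization and a variance trend. The 4 collagens became 6 without embryonic fibroblast replicate 3.

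Laminin alpha 2 (Lama2), a basement membrane chain of mature muscle, was the matrix member below both. It read 8.69, 8.50 and 8.73 in the embryonic fibroblasts, 9.55, 9.52 and 9.30 in the cardiomyocytes and 11.44, 11.15 and 11.83 in the adult fibroblasts. The embryonic fibroblasts were the lowest group and the adult fibroblasts far the highest. The contrast was -1.82 ± 0.14 (SE), a signal 3.54-fold lower (adjusted p = 0.000144).

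Secreted matrix enzymes were above both in 8 of 71 cases. Pappa, a protease that frees insulin-like growth factors from their binding proteins, read 8.69, 9.11 and 8.63 in the embryonic fibroblasts, 7.21, 7.01 and 7.41 in the cardiomyocytes and 7.999, 8.05 and 8.05 in the adult fibroblasts. Adult fibroblasts were nearer, and the contrast was 1.19 ± 0.12 (SE, adjusted p = 0.000508). The sheddase Adam10 read 10.15, 10.53 and 10.26 in the embryonic fibroblasts, 9.96, 9.995 and 9.80 in the cardiomyocytes and 9.10, 9.38 and 9.19 in the adult fibroblasts (contrast 0.74 ± 0.10, SE, adjusted p = 0.00246), and Adam12, a sheddase known to act on the Hbegf precursor, read 7.84, 8.21 and 7.83 in the embryonic fibroblasts, 7.13, 7.13 and 7.44 in the cardiomyocytes and 7.43, 7.26 and 7.41 in the adult fibroblasts (contrast 0.66 ± 0.11, SE, adjusted p = 0.00728). The 8 became 5 without embryonic fibroblast replicate 1.

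Mmp16, a membrane metalloprotease, had a contrast of 0.95 ± 0.19 (SE, adjusted p = 0.017), lost without embryonic fibroblast replicate 1 (0.0661) or 3 (0.0602). The collagen-modifying hydroxylase Plod3 had one of 0.65 ± 0.14 (SE, adjusted p = 0.0235), lost without any 1 of the cardiomyocyte arrays or embryonic fibroblast replicate 1 or 2, with an adjusted p up to 0.123. Lysyl oxidase (Lox), the crosslinker of collagen, named after its values were seen, was just above the adult fibroblasts, at 8.10, 8.28 and 8.18 against 8.05, 8.06 and 8.01, and far above the cardiomyocytes at 6.44, 6.90 and 6.58. Adamtsl3, an ADAMTS-like matrix protein, was below both at 6.26, 6.17 and 6.24, against 6.36, 6.51 and 6.55 in the cardiomyocytes and 7.603, 7.57 and 7.71 in the adult fibroblasts (contrast -0.83 ± 0.07, SE, adjusted p = 0.000181). Without adult fibroblast replicate 3, 3 members of this list were below.

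Reck, a membrane-anchored inhibitor of metalloproteases, was the member above both of 24 protease inhibitors. It read 8.996, 8.94 and 8.92 in the embryonic fibroblasts, 8.34, 8.37 and 8.08 in the cardiomyocytes and 8.51, 8.44 and 8.52 in the adult fibroblasts (contrast 0.58 ± 0.08, SE, adjusted p = 0.0022). Cystatin C (Cst3), an inhibitor of cathepsins, was below both, with a contrast of -0.49 ± 0.12 (SE, adjusted p = 0.0426). The call of Cst3 was lost with the replicate block (0.0717) and without any 1 array other than embryonic or adult fibroblast replicate 3, with an adjusted p up to 0.194. Its difference from the cardiomyocytes alone was not called in limma (adjusted p = 0.0662). Complement factor I (Cfi), which inactivates complement, read 7.89, 7.84 and 7.64 in the embryonic fibroblasts, 6.52, 6.55 and 6.78 in the cardiomyocytes and 6.63, 6.26 and 6.57 in the adult fibroblasts. The other groups overlapped, and the contrast was 1.24 ± 0.11 (SE), or 2.37-fold (adjusted p = 0.000232). Cfi was the 1 member above both in a list of 32 (3.12%), a share near the 2.63% of all genes.

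Receptors of growth factors were above both in 4 of 60 cases (6.67%, against 2.63% of all genes). Fgfr2, a receptor of FGF ligands, read 8.31, 8.39 and 8.36 in the embryonic fibroblasts, 7.46, 7.44 and 7.33 in the cardiomyocytes and 7.01, 6.80 and 7.31 in the adult fibroblasts. The contrast was 1.13 ± 0.10 (SE, adjusted p = 0.000335). Tek, the angiopoietin receptor of endothelium, read 11.07, 11.12 and 10.54 in the embryonic fibroblasts, 9.54, 9.15 and 9.23 in the cardiomyocytes and 10.16, 10.41 and 10.22 in the adult fibroblasts. Its contrast was 1.13 ± 0.14 (SE, adjusted p = 0.00164). Acvr1, a BMP receptor, and Tgfbr1, a TGF-beta receptor, had contrasts of 0.70 ± 0.12 (SE) and 0.31 ± 0.06 (SE, adjusted p = 0.0086 and 0.0113). The first was lost without embryonic fibroblast replicate 2 (0.0509), and the second without replicate 1 (0.0659). Without embryonic fibroblast replicate 3 the receptor count was 7, and without adult fibroblast replicate 2 it was 8.

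Of 27 integrin chains, 2 alpha chains were above both (7.41%, against 2.63% of all genes). Itga8, a fibronectin-binding chain of mesenchyme, read 9.64, 9.68 and 9.88 in the embryonic fibroblasts, 8.23, 8.05 and 7.93 in the cardiomyocytes and 8.35, 7.75 and 8.94 in the adult fibroblasts. The contrast was 1.52 ± 0.21 (SE), or 2.88-fold (adjusted p = 0.00284), and adult fibroblast replicate 3 was the highest of the others. Itga4, which binds fibronectin and is needed in the epicardium, read 7.71, 7.79 and 8.56 in the embryonic fibroblasts, 6.89, 7.12 and 7.22 in the cardiomyocytes and 7.07, 7.42 and 7.42 in the adult fibroblasts (contrast 0.83 ± 0.18, SE, adjusted p = 0.0258). That call was lost without cardiomyocyte replicate 1 or 2, embryonic fibroblast replicate 2 or adult fibroblast replicate 1, with an adjusted p up to 0.0649. The beta chain Itgb1, a partner of both, was not called: it read 12.36, 12.45 and 12.32 in the embryonic fibroblasts, 12.16, 12.26 and 12.08 in the cardiomyocytes and 12.24, 12.28 and 12.27 in the adult fibroblasts, with a contrast of 0.16 ± 0.07 (SE, adjusted p = 0.188). Without embryonic or adult fibroblast replicate 3, 5 integrin chains were above both.

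Phosphatases that end MAP kinase signalling were the members above both of 51 immediate early and stress response genes. Dusp4 read 8.61, 8.46 and 8.05 in the embryonic fibroblasts, 6.65, 6.85 and 6.73 in the cardiomyocytes and 7.07, 6.91 and 7.07 in the adult fibroblasts. Its contrast was 1.496 ± 0.12 (SE), or 2.82-fold (adjusted p = 0.000164), with the other groups close together. Dusp6, which acts on ERK in the cytoplasm, read 9.15, 8.95 and 9.11 in the embryonic fibroblasts, 8.31, 8.06 and 7.96 in the cardiomyocytes and 7.75, 8.39 and 7.56 in the adult fibroblasts (contrast 1.06 ± 0.17, SE, adjusted p = 0.00511). Dusp5, the nuclear ERK phosphatase, had a contrast of 0.51 ± 0.10 (SE, adjusted p = 0.0133), lost without embryonic fibroblast replicate 1 (0.0601) or 2 (0.0672). Without adult fibroblast replicate 3, 5 genes of this list were above both, and without embryonic fibroblast replicate 1, 2 were. Myc, chosen after its values were seen, was higher in the adult fibroblasts (12.32 to 12.70) than in the embryonic ones (11.62 to 11.86).

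Of 57 mesenchymal and epicardial transcription factors, 3 were above both. Nr2f2, a nuclear receptor of veins and mesenchyme, read 8.50, 8.57 and 8.41 in the embryonic fibroblasts, 7.88, 7.48 and 7.71 in the cardiomyocytes and 7.80, 7.57 and 7.75 in the adult fibroblasts. The other groups overlapped, and the contrast was 0.80 ± 0.10 (SE, adjusted p = 0.00124). Gli3, a mediator of hedgehog signals, read 8.94, 9.23 and 8.90 in the embryonic fibroblasts, 7.74, 7.67 and 7.56 in the cardiomyocytes and 8.68, 8.41 and 8.62 in the adult fibroblasts, with adult fibroblasts close behind (contrast 0.91 ± 0.10, SE, adjusted p = 0.000623). Sox9, a factor of valve and cartilage mesenchyme, had a contrast of 0.52 ± 0.11 (SE, adjusted p = 0.0221), lost under quantile normalization (0.0555) and without cardiomyocyte replicate 2 (0.0566) or embryonic fibroblast replicate 1 (0.0976). Without embryonic fibroblast replicate 3 the count was 8, without adult fibroblast replicate 2 or 3 it was 5, and without embryonic fibroblast replicate 1 or cardiomyocyte replicate 2 it was 2.

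Of 12 markers of the epicardium and its mesothelium, 6 were above both: Upk1b, Gpm6a, Lrrn4, Krt18, Upk3b and Krt8. Gpm6a, a membrane glycoprotein, read 9.58, 9.51 and 9.95 in the embryonic fibroblasts, 8.93, 8.53 and 8.70 in the cardiomyocytes and 7.81, 7.54 and 8.003 in the adult fibroblasts, and keratin 18 (Krt18) read 8.72, 8.20 and 8.35 in the embryonic fibroblasts, 7.75, 7.79 and 7.81 in the cardiomyocytes and 7.11, 7.10 and 7.46 in the adult fibroblasts. Their contrasts were 1.43 ± 0.14 (SE) and 0.92 ± 0.12 (SE, adjusted p = 0.000422 and 0.00219). Lrrn4 had one of 0.76 ± 0.10 (SE, adjusted p = 0.00215), and Upk3b one of 0.46 ± 0.10 (SE, adjusted p = 0.0209), which was lost without cardiomyocyte replicate 1 or 2 or embryonic fibroblast replicate 1 or 2, with an adjusted p up to 0.109. The mean of the 12 markers was 8.29 to 8.45 in the embryonic fibroblasts, 7.80 to 7.88 in the cardiomyocytes and 7.58 to 7.68 in the adult fibroblasts. Wt1, a defining transcription factor of the epicardium, read 9.04, 8.75 and 9.44 in the embryonic fibroblasts, 8.47, 8.62 and 8.66 in the cardiomyocytes and 8.56, 8.66 and 8.30 in the adult fibroblasts. It did not overlap, but its adjusted p was 0.0577. The 6 became 4 without embryonic fibroblast replicate 1.

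Endocardial markers were above both in 3 of 7 cases: Npr3, Hapln1 and Nrg1. Npr3, the clearance receptor of natriuretic peptides, read 10.83, 11.18 and 10.93 in the embryonic fibroblasts, 9.93, 9.54 and 9.55 in the cardiomyocytes and 7.61, 7.42 and 7.70 in the adult fibroblasts. The contrast was 2.36 ± 0.12 (SE), or 5.13-fold (adjusted p = 1.68e-05), with a large step between the other groups. The 7 markers averaged 8.49 to 8.65 in the embryonic fibroblasts, 7.74 to 7.92 in the cardiomyocytes and 7.48 to 7.64 in the adult fibroblasts. The 3 became 5 without embryonic fibroblast replicate 3.

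Endothelial markers were above both in 3 of 14 cases: Ramp2, Emcn and Tek. Ramp2, a partner of the adrenomedullin receptor, read 10.55, 10.52 and 10.31 in the embryonic fibroblasts, 9.16, 9.02 and 8.86 in the cardiomyocytes and 8.66, 8.88 and 8.44 in the adult fibroblasts (contrast 1.62 ± 0.11, SE, adjusted p = 8.66e-05). Endomucin (Emcn), a sialomucin of veins and endocardium, read 11.29, 11.20 and 11.11 in the embryonic fibroblasts, 9.96, 8.91 and 9.22 in the cardiomyocytes and 9.63, 10.60 and 9.51 in the adult fibroblasts (contrast 1.56 ± 0.27, SE, adjusted p = 0.00815). The spread was wide in both other groups. Pecam1 and Cdh5, which define endothelium, were high in adult fibroblast replicate 2. Pecam1 read 10.96, 10.91 and 10.32 in the embryonic fibroblasts, 9.28, 8.60 and 8.91 in the cardiomyocytes and 10.36, 11.17 and 9.33 in the adult fibroblasts, so that the groups overlapped, with an adjusted p of 0.0915. Cdh5 read 11.83, 11.79 and 11.18 in the embryonic fibroblasts, 10.13, 9.42 and 9.76 in the cardiomyocytes and 11.31, 11.95 and 10.36 in the adult fibroblasts, with an adjusted p of 0.0696. The call was made for both without adult fibroblast replicate 2 (adjusted p = 0.0209 and 0.022) or replicate 3 (0.0398 and 0.0291).

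The 14 endothelial markers averaged 9.34 to 9.76 in the embryonic fibroblasts, 8.35 to 8.71 in the cardiomyocytes and 8.66 to 9.63 in the adult fibroblasts. Without adult fibroblast replicate 2, 6 of them were above both, and without embryonic fibroblast replicate 3, 5 were. The range of the endothelial means in the embryonic fibroblasts overlapped that of the adult fibroblasts, whereas the epicardial and endocardial means did not overlap between groups. Hapln1 and Nrg1 are themselves both endocardial markers and secreted products, and Edn1 and Sema3d are also known from endothelium or epicardium. The part of these cells in the results was not tested.

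Macrophage markers averaged 8.10 to 8.43 in the embryonic fibroblasts, 7.41 to 7.52 in the cardiomyocytes and 8.59 to 9.23 in the adult fibroblasts, and 1 of 16, Aif1, was above both (contrast 0.85 ± 0.14, SE, adjusted p = 0.00666). Transgelin (Tagln) was above both among 12 smooth muscle markers, with a contrast of 0.68 ± 0.15 (SE, adjusted p = 0.0271), lost without any 1 of the cardiomyocyte or embryonic fibroblast arrays (up to 0.132). Clec1b was above both among 6 platelet markers, with a contrast of 0.44 ± 0.10 (SE, adjusted p = 0.0295), lost without any 1 cardiomyocyte array or embryonic fibroblast replicate 1 or 2 (up to 0.118). Its difference from the adult fibroblasts alone was not called in limma (adjusted p = 0.0879). Of 12 fibroblast markers, Postn, Col3a1, vimentin (Vim) and Col1a2 were above both, but 1 was under quantile normalization. Tcf21, Pdgfra and Thy1, of the same 12 and chosen after their values were seen, were highest in the adult fibroblasts, as was Dcn. Their means were 8.57, 9.93 and 8.61 in the embryonic fibroblasts, 7.19, 8.42 and 7.72 in the cardiomyocytes and 9.95, 10.48 and 9.57 in the adult fibroblasts. Vim read 13.20, 13.17 and 12.87 in the embryonic fibroblasts, 12.33, 12.34 and 12.34 in the cardiomyocytes and 12.83, 12.78 and 12.77 in the adult fibroblasts.

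Mitosis genes were an example of the intermediate order. None of 38 mitosis genes was above both in the limma fit. However, 19 had a called higher average contrast and 25 a higher one at an unadjusted p under 0.05. Over all genes these shares were 5.28% and 11.6%. Their array means were 8.87 to 9.22 in the embryonic fibroblasts, 9.74 to 9.93 in the cardiomyocytes and 6.93 to 7.14 in the adult fibroblasts. The embryonic fibroblasts were thus below the cardiomyocytes and well above the adult cells. Of 35 DNA replication genes, the origin recognition subunit Orc1 and the clamp loader subunit Rfc5 were above both (contrasts 0.78 ± 0.12 (SE) and 0.59 ± 0.11 (SE), adjusted p = 0.00436 and 0.01), the call of Rfc5 lost without embryonic fibroblast replicate 1 (0.0527). Of 37 oxidative phosphorylation genes none was above or below both in limma, 1 having a called higher average contrast, and 7 a higher and 1 a lower one at an unadjusted p under 0.05.

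Further genes above both, in no list and chosen after their values were seen, are known from fetal growth or imprinting. Such genes were not counted as a list, so their share above both is not given. Peg10, an imprinted gene derived from a retroelement, read 10.90, 11.02 and 11.10 in the embryonic fibroblasts, 9.85, 9.78 and 9.38 in the cardiomyocytes and 9.42, 9.93 and 9.92 in the adult fibroblasts. The chromatin protein Hmga2, high in embryonic cells, read 10.40, 10.42 and 10.11 in the embryonic fibroblasts, 9.36, 9.37 and 9.36 in the cardiomyocytes and 8.37, 8.17 and 8.85 in the adult fibroblasts. The imprinted Zdbf2 and Peg3 were near the cardiomyocytes and far above the adult fibroblasts, with contrasts of 2.01 ± 0.10 (SE) and 1.42 ± 0.07 (SE). Dlk1, an imprinted Notch-like protein, had a contrast of 0.46 ± 0.12 (SE, adjusted p = 0.0451). Also chosen after their values were seen, and in no list, Actn1, Flna, Zyx and Actb were above both with contrasts of 1.09 ± 0.19 (SE), 0.88 ± 0.18 (SE), 0.57 ± 0.07 (SE) and 0.61 ± 0.09 (SE). The differences of Flna and Actb from the adult fibroblasts alone were not called in limma (adjusted p = 0.0626 and 0.062).

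Fewer genes were lower in the embryonic fibroblasts than in both other groups, and their distances were smaller. The 168 genes had a median average contrast of -0.51. The farthest was Fgl2, a fibrinogen-like protein and prothrombinase, which read 7.43, 7.09 and 8.25 in the embryonic fibroblasts, 9.07, 9.07 and 9.07 in the cardiomyocytes and 10.97, 10.76 and 11.61 in the adult fibroblasts. Embryonic fibroblast replicate 3 was the highest of its group and still below the cardiomyocytes, whose values were nearly equal, and the adult fibroblasts were far higher. The contrast was -2.50 ± 0.25 (SE), a signal 5.67-fold lower (adjusted p = 0.000463).

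Cd36, a fatty acid transporter, was the next in distance and read 9.40, 8.95 and 9.65 in the embryonic fibroblasts, 10.79, 10.37 and 10.20 in the cardiomyocytes and 11.41, 11.999 and 10.63 in the adult fibroblasts. Its contrast was -1.56 ± 0.28 (SE, adjusted p = 0.00927), lost without embryonic fibroblast replicate 2 (0.0574). Lipoprotein lipase (Lpl), which frees fatty acids from lipoproteins, read 9.37, 8.97 and 9.62 in the embryonic fibroblasts, 10.56, 10.53 and 10.29 in the cardiomyocytes and 10.28, 10.23 and 10.40 in the adult fibroblasts. The other groups were near each other for Lpl, and the contrast was -1.07 ± 0.13 (SE, adjusted p = 0.00153). Of other genes below both, chosen after their values were seen and in no list, the lipoprotein receptor Vldlr and the carnitine transporter Slc22a5 had contrasts of -0.89 ± 0.14 (SE) and -0.64 ± 0.11 (SE), and hexokinase 2 (Hk2) one of -1.45 ± 0.23 (SE). The difference of Hk2 from the cardiomyocytes alone was not called in limma (adjusted p = 0.105). Lipid genes did not all go this way. The lipoprotein receptor Olr1 and the fatty acid binding protein Fabp5, chosen likewise, were above both, with contrasts of 2.14 ± 0.11 (SE) and 1.02 ± 0.11 (SE). The glycogen branching enzyme Gbe1 read 9.51, 9.48 and 10.16 in the embryonic fibroblasts, 10.86, 10.97 and 10.68 in the cardiomyocytes and 10.78, 10.67 and 10.54 in the adult fibroblasts (contrast -1.03 ± 0.15, SE, adjusted p = 0.00354).

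Antioxidant genes had 2 of 19 members below both (10.5%, against 0.843% of all genes) and 0 above. Of the 19, 4 had an unadjusted p under 0.05 in limma for a higher average contrast. Sod2, the mitochondrial superoxide dismutase, read 9.44, 9.20 and 10.05 in the embryonic fibroblasts, 10.68, 10.56 and 10.46 in the cardiomyocytes and 10.79, 10.94 and 11.003 in the adult fibroblasts. Its contrast was -1.18 ± 0.16 (SE), a signal 2.26-fold lower (adjusted p = 0.0026). Metallothionein 1 (Mt1), which binds zinc and copper, read 9.44, 8.80 and 9.75 in the embryonic fibroblasts, 10.31, 10.10 and 10.04 in the cardiomyocytes and 10.38, 10.85 and 10.25 in the adult fibroblasts. The contrast was -0.99 ± 0.20 (SE, adjusted p = 0.0179), lost without embryonic fibroblast replicate 1 (0.0631) or 2 (0.0574), which left 1 of the 19. Cholesterol synthesis gave 2 of 18 below, Msmo1 and Insig1, with contrasts of -0.62 ± 0.10 (SE) and -0.39 ± 0.10 (SE, adjusted p = 0.00699 and 0.0402). The call of Insig1 was lost under a variance trend (0.0544) and without any 1 of the cardiomyocyte arrays, embryonic fibroblast replicates 1 and 2 or adult fibroblast replicate 2, with an adjusted p up to 0.153. Its difference from the adult fibroblasts alone was not called in limma (adjusted p = 0.073). None of 26 interferon response genes was above or below both in limma, 3 having a called lower average contrast and 9 one at an unadjusted p under 0.05, and without embryonic fibroblast replicate 3, 2 were below, and without adult fibroblast replicate 3, 1 was.

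The other genes among the 10 largest below were Zcchc7, an RNA-binding zinc knuckle protein, Pcgf1, a Polycomb subunit, Plcb4, a phospholipase C, and Mir16-1. Zcchc7 read 9.003, 9.19 and 9.50 in the embryonic fibroblasts, 10.30, 10.15 and 10.31 in the cardiomyocytes and 10.20, 9.96 and 10.27 in the adult fibroblasts (contrast -0.97 ± 0.12, SE, adjusted p = 0.00123). Pcgf1 had a contrast of -0.96 ± 0.19 (SE, adjusted p = 0.0163), lost without embryonic fibroblast replicate 1 (0.063), and Plcb4 one of -0.88 ± 0.15 (SE, adjusted p = 0.00728). Mir16-1, a microRNA gene known for restraining cyclins, read 5.86, 6.22 and 6.46 in the embryonic fibroblasts, 7.15, 6.88 and 7.15 in the cardiomyocytes and 7.15, 7.51 and 6.82 in the adult fibroblasts. Its contrast was -0.93 ± 0.17 (SE, adjusted p = 0.0101), lost without embryonic fibroblast replicate 1 (0.0537).

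**Figure D5:**
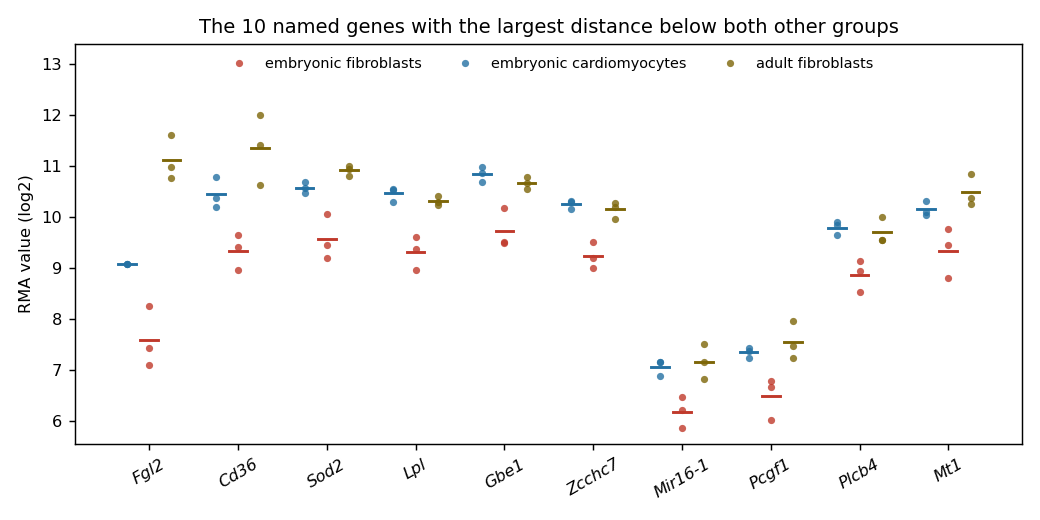
RMA values (log2) of the 10 named genes with the largest distance below both other groups, with 1 point per array and a bar at each group mean. Fgl2 has the widest separation, with the embryonic fibroblasts at 7.09 to 8.25 and the other arrays at 9.07 or above.

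The mature sequences of this microRNA gene are shown because it is the single microRNA among the genes named, with the seed (bases 2 to 8) in capitals. They are from RefSeq (GRCm38.p6, minus strand of chromosome 14). Which form of the transcript the probe reads was not examined.
mmu-miR-16-1-3p, chr14:61631894-61631915: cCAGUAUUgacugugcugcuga
mmu-miR-16-5p, chr14:61631936-61631957: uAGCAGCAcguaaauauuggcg

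Sequences upstream of the genes were searched on both strands for 6 motifs. The TATA box was spelled TATAAA, and the AP-1 motif as TGA and TCA with any 1 base between them. The cyclic AMP response element was TGACGTCA. The GC box was GGGCGG, the TEAD motif CATTCC, and the ETS motif CCGGAA, and matches to the TEAD and ETS letters can overlap. The windows were the 250 bases before the start of the first RefSeq entry of a gene (GRCm38.p6), given for 15609 of the 19933 genes, 414 of the 524 above and 129 of the 168 below. A match is a description of letters, not of a bound site. In the genes above, the shares were 10.1% for the TATA box against 11.2% of all genes, 3.86% against 6.11% for AP-1, 1.21% against 2.12% for the cyclic AMP response element, 58.0% against 46.0% for the GC box, 11.1% against 11.4% for TEAD and 15.7% against 16% for ETS. In the genes below they were 8.53%, 3.10%, 8.53%, 54.3%, 6.98% and 16.3% in the same order.

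The share with TGACGTCA among the genes below, 11 of 129, stood beside 331 of 15609 over all genes. This motif was singled out after the 6 shares had been seen, and no test was made. The windows are shown because they are what the share counts, 12 in 11 genes, with the motif in capitals and 8 bases on either side, each on the strand of its gene.
Bend6, chr1:33907839-33907862, minus strand: tcggtgggTGACGTCAcgggctgc
Dio2, chr12:90739118-90739141, minus strand: tttctcaaTGACGTCAagatcttt
Dnajc27, chr12:4082550-4082573, plus strand: ccccgcaaTGACGTCAcggcgcgc
Mycbpap, chr11:94521509-94521532, minus strand: gcctcctgTGACGTCAagagtctg
Phospho2, chr2:69789567-69789590, plus strand: gccggaagTGACGTCAgtctccaa
Ralgapa1, chr12:55821214-55821237, minus strand: cgctgacaTGACGTCAcgagcact
Ralgapa1, chr12:55821198-55821221, minus strand: cgagcactTGACGTCAgaaggcgg
Trp53inp2, chr2:155381807-155381830, plus strand: cccctttgTGACGTCAcaatcagc
Tspyl4, chr10:34297380-34297403, plus strand: tggtatccTGACGTCAcaggttgc
Ttc1, chr11:43748106-43748129, minus strand: ccgtacagTGACGTCAcacagcta
Zfp595, chr13:67332573-67332596, minus strand: taccacgtTGACGTCAccaaaagg
Zfp72, chr13:74390844-74390867, minus strand: gcatggtgTGACGTCAcaagcaag

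The 11 genes are of unlike function and had small contrasts, from -0.33 ± 0.06 (SE, adjusted p = 0.00927) for Mycbpap, known to bind a Myc partner, to -0.83 ± 0.20 (SE, adjusted p = 0.0339) for Dio2, the enzyme that activates thyroid hormone. Dnajc27 had a contrast of -0.54 ± 0.07 (SE, adjusted p = 0.00196), and its motif lay 16 to 9 bases before the start. In Ralgapa1, a regulator of Ral GTPases, 2 matches lay 62 to 55 and 46 to 39 bases before it. In Phospho2 the match was the farthest from the start, 162 to 155 bases.

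The windows before the genes farthest in each direction are printed to set them side by side, with matches to the 6 motifs in capitals. The one before Fabp7 held no match. The one before Fgl2 held the AP-1 letters 16 to 10 bases before the start and a GC box on the minus strand 44 to 39 bases before it.
Fabp7, chr10:57784673-57784922, plus strand: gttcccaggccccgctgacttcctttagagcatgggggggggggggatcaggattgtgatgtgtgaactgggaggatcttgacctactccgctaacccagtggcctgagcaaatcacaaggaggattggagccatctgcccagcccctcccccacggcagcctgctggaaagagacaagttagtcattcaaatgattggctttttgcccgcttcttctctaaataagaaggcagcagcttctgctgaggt
Fgl2, chr5:21372423-21372672, plus strand: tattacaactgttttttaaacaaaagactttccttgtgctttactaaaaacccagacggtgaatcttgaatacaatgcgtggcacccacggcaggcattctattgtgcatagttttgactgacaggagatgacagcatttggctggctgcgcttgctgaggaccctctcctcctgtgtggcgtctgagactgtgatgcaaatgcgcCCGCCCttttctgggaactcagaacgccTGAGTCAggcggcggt

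Counts of 0 to 2 members were also moved by single arrays in other lists. Without adult fibroblast replicate 3, the count below both became 2 for the growth factor ligands, 2 for the matrix glycoproteins, 3 for the guidance cues and 1 for the receptors and the immediate early genes, and the count above became 2 for the protease inhibitors, complement genes and macrophage markers. Without cardiomyocyte replicate 2, 1 complement gene and 1 immediate early gene were below both and 1 cholesterol gene was above. Without embryonic fibroblast replicate 3, 1 immediate early gene was below, 1 cholesterol gene was above and 2 platelet markers were above. Without cardiomyocyte replicate 1 or embryonic fibroblast replicate 1, 1 integrin was below both. Without cardiomyocyte replicate 3, 2 protease inhibitors were above both, without adult fibroblast replicate 1, 2 smooth muscle markers were, and without adult fibroblast replicate 2, 1 lymphocyte marker was.

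At the edge of the definition, Ptpn21 and Mtcl1 were the genes with the smallest gap above the other arrays. Ptpn21 read 8.69, 8.71 and 8.82 in the embryonic fibroblasts, 8.68, 8.69 and 8.55 in the cardiomyocytes and 8.65, 8.58 and 8.11 in the adult fibroblasts, and its average contrast was not called (adjusted p = 0.384). Mtcl1 read 8.76, 8.45 and 8.37 in the embryonic fibroblasts, 7.91, 7.90 and 8.08 in the cardiomyocytes and 8.20, 8.37 and 8.26 in the adult fibroblasts and was called (adjusted p = 0.0327), but not with the replicate block (0.065) or without cardiomyocyte replicate 1 or 2, embryonic fibroblast replicate 1 or 2 or adult fibroblast replicate 1, with an adjusted p up to 0.125. The nearest genes outside it were 2 loci without an established name, 1700120K04Rik and 3830408C21Rik, with adjusted p-values of 0.564 and 0.468. No overlap was thus met without a call by 232 genes above and 325 genes below.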

How the data were processed

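RNA was extracted with Trizol and labelled with an Ambion MessageAmp II-biotin kit, per the labels' protocols. RMA is the 1 tool that the submitters' processing notes name, without a version, for the values the authors deposited. The values of the deposited table lie between 2.703 and 14.197 and were read as log2. The sources used here state neither the log base nor a genome build. Of 28767 probes, 21776 had 1 gene symbol, 1618 several and 5373 none. The single-symbol probe with the highest mean over all 9 arrays stood for each of 19933 genes. Differences were fitted over all groups with limma 3.58.1 in R 4.3.3 (lmFit, eBayes), with Benjamini-Hochberg adjustment over all genes. Genes were named if they were the 12 farthest above or 10 farthest below the nearer group mean (predicted loci left out), the largest members of each list, the nearest to the edge of the definition, or fixed controls such as Fn1. Others are said to be chosen after their values were seen. The members and lists were chosen with earlier results of these data known. On simulated data over 19933 genes, 95 of 100 genes changed by 1 on the log2 scale met the rule of no overlap plus a limma call. So did 99 of 100 genes changed by 2, with 17 false calls. The simulation gave cardiomyocytes and adult fibroblasts the same mean, so this recovery need not hold where those groups differ. No pair of arrays held identical values. The number of arrays limits the precision.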

Additional observations from a re-analysis of the deposited data

How the results depend on the processing

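Across 16 alternatives, 9 of which left out 1 array, no called named gene reversed its direction. The contrast of Nkx2-5, which was called in none of them, changed sign and ranged from -0.06 to 0.02. Of 90 called named genes, 66 were called in every alternative that held them and 24 were not. The genes above both numbered 474 to 655 in the other alternatives and 362 to 685 with an array left out, against 524. With array weights, 1891 genes were called higher and 1617 lower on the average contrast, against 1052 and 508, and 307 were below both, against 168. With 1 array left out, the calls numbered 571 to 1438 higher and 174 to 1049 lower, the genes below both 73 to 338, and those at least 2-fold above or below 51 to 68 and 1 to 12. Of the genes above both, 331 remained without embryonic fibroblast replicate 2 and 523 without adult fibroblast replicate 3. Of those below, 67 and 168 did. Deviations of same-numbered arrays correlated at -0.195 to 0.198. Differently numbered arrays were not compared, so this cannot decide if the replicate numbers pair the samples. With the replicate block 1040 genes were called higher, 440 lower, 499 were above both and 142 below. Signal over background was not measured in the deposited table; leaving out genes under the 30th percentile of mean signal kept 14668 genes, with 501 above both and 158 below.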
